A study of Mus musculus with 24 samples.

Results

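The genes described here are the mouse zinc finger genes numbered Zfp600 to Zfp999, chosen by their symbols and by their counts. Of 171 protein-coding genes whose symbol is Zfp followed by a number from 600 to 999, 147 had at least 10 raw counts in 4 or more of the 24 libraries and form the set. Those counts chose the members, so that a member is detected in this tissue is not a finding. The other 24, among them Zfp600, Zfp616, Zfp708, Zfp750 and Zfp819, stayed below the minimum, and 3 more symbols in the range, Zfp640, Zfp783 and Zfp939, belong to pseudogenes. Zfp784 and Zfp811 lay just inside, with 10 counts in 5 libraries each, and Zfp980 and Zfp989 just outside, with 10 counts in 2 libraries each. The set is 147 of the 13639 protein-coding genes that pass the same minimum, and 103 of its members reached 10 counts in all 24 libraries.

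RNA was sequenced from small intestinal crypt epithelium of 8 mice, all given 1 mg tamoxifen on 3 consecutive days and taken 4 days after induction. The 4 knockout mice were Setd1aFC/FC; Lgr5-eGFP-CreERT2 (hom) and the 4 control mice were Setd1aFC/+; Lgr5-eGFP-CreERT2 (het), so the controls carried 1 conditional allele and the Cre as well. The gene targeted, Setd1a, encodes a methyltransferase for lysine 4 of histone H3. Antibodies to EpCAM, CD24 and CD45 served to sort live cells into Paneth, stem and transit-amplifying (TA) fractions, with 1 library of each per mouse, so each of the 6 groups holds 4 libraries. The Cre is driven from Lgr5, a gene of crypt stem cells, and what share of each fraction had recombined was not measured here. The ages of the mice were not stated.

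C2H2 zinc fingers are short folds around a zinc ion that read DNA bases, and most genes of the Zfp series encode proteins with a row of them. The largest subfamily carries a KRAB domain at the start of the protein, which recruits the corepressor TRIM28 and with it the histone methyltransferase SETDB1, and is best known for silencing endogenous retroviruses and other transposable elements. Such genes lie in clusters of recent duplicates on a few chromosomes, and many are expressed in stem and germ cells.

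Library totals lay between 24726282 and 47052856 counts. The members together took 0.0869 to 0.30% of the counts in Paneth libraries, 0.315 to 0.409% in stem libraries and 0.272 to 0.313% in TA libraries, while the 10 most abundant genes of any kind took 13.05 to 57.22%, the most in a hom Paneth library (mouse BN45). Levels are given in CPM, the usual unit of a gene's counts scaled to the size of its library, here with the TMM method's correction for library composition. Setd1a itself had 5.19 ± 1.49 CPM in hom stem cells and 5.64 ± 1.58 CPM in het stem cells (SD, n = 4 each), a log2 fold change of -0.12 with an adjusted p of 0.98 in edgeR; the counts cover all exons, so they do not check the loss of a single exon. The 5 stem markers (Lgr5, Olfm4, Ascl2, Smoc2 and Rgmb) all passed as higher in the stem fraction than in the TA fraction, and all 5 Paneth markers were higher in the Paneth fraction than in either other fraction. The Paneth fraction also held all 6 enteroendocrine markers and all 5 tuft markers at higher levels than both other fractions. The summed enteroendocrine level had a median of 4480 CPM in the Paneth fraction, 2.53 CPM in stem cells and 101 CPM in TA cells, and the summed tuft level 1890 CPM, 4.48 CPM and 2.93 CPM in the same order. TA libraries had more goblet marker RNA than stem libraries, with medians of 172 CPM in stem and 5270 CPM in TA cells.

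A KRAB A box was found in the coding sequences of 102 members and not in those of the other 45. The search used a fixed pattern in the first part of the protein, so a divergent KRAB domain would be missed. Members without a KRAB A box are those in which none was found. The KRAB proteins had a median of 12 fingers (0 to 33) in a median of 540 residues, and the others a median of 7 fingers (0 to 27) in 608 residues. Promoters of 126 members were found in RefSeq's table (build GRCm38.p6, 250 bases before to 50 after the start), 153 promoters in all. Those of the 3 members whose levels separated stem from TA cells in every library, and of Zfp667 and Zfp867, the pair named with the set, are shown 5′ to 3′ along the gene's strand, with each CCAAT box on either strand (CCAAT or ATTGG) in capitals.
Zfp984, chr4:147809739-147810038, minus strand: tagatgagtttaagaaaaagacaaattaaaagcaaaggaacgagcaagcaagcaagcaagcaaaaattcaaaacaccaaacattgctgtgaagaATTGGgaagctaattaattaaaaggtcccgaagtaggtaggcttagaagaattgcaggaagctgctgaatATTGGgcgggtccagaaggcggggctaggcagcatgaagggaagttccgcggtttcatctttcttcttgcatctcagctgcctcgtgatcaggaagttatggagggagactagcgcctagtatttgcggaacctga
Zfp964, chr8:69654306-69654605, plus strand: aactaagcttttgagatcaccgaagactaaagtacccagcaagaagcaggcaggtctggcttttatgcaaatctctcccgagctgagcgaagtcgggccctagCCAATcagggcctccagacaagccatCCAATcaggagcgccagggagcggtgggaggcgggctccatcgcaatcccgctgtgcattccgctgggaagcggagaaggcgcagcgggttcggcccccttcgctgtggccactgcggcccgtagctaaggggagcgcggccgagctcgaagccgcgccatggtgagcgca
Zfp618, chr4:62965317-62965616, plus strand: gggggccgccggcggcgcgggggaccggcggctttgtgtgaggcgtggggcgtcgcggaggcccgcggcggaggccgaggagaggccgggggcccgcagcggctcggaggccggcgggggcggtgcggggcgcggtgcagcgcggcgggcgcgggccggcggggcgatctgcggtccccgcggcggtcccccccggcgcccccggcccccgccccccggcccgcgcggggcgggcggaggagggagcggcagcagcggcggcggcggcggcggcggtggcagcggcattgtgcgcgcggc
Zfp667, chr7:6286330-6286629, plus strand: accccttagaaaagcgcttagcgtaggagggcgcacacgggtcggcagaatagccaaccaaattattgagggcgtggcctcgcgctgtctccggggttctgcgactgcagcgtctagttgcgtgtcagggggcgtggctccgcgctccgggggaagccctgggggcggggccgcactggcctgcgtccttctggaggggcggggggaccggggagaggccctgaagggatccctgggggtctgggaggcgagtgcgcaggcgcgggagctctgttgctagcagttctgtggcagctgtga
Zfp867, chr11:59472425-59472724, minus strand: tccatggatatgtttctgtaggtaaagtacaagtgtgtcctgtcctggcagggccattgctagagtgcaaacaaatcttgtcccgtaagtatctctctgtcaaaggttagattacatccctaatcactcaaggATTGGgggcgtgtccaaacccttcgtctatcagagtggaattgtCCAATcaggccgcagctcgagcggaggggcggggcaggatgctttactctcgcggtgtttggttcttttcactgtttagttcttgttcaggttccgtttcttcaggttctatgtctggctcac
The promoters of the KRAB genes Zfp984, Zfp964 and Zfp867 hold 2 CCAAT boxes each, and those of Zfp618, which has no KRAB A box, and of the KRAB gene Zfp667 hold none.

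The same letters were counted in all promoters. A CCAAT box stood in 68.9% of the 106 promoters of KRAB members, in 34.0% of the 47 promoters of members without a KRAB A box and in 37.4% of the 32851 promoters of the same length in the table. Those 32851 belong to 27025 genes taken without the count minimum that the members passed. They are thus an unlike set for every motif and for CpG. The ETS family core CCGGAAG stood in 20.8%, 8.51% and 8.86% of the same promoters. A TATAAA box was in 4.58% of all members' promoters and in 13.6% of all promoters and the YY1 core AAGATGGCG in 1.31% and 1.4%. Both strands were searched for each of the 4 motifs, and overlapping matches of different motifs were counted for each. The members' promoters held a median of 12 CpG, 9 for KRAB members and 24 for the others, against 7 for all promoters. The printed Zfp618 promoter, at 59 CpG, has more than that of Zfp984, at 9. A match is a run of letters and not a measured binding site.

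Most members were moderately expressed. Per kilobase of exon, the median member had 2.33 RPKM over the 24 libraries (2.51 RPKM with a KRAB A box, 1.22 RPKM without), against 2.95 RPKM for all protein-coding genes at the same minimum. Zfp706, a small single-finger protein known in mouse embryonic stem cells for promoting exit from self-renewal, stood far above the rest at 115 RPKM. The next 4 were all KRAB genes, Zfp946 at 22.3 RPKM, Zfp825 at 21.8 RPKM, Zfp932 at 15.1 RPKM and Zfp984 at 14.9 RPKM; Zfp932 is known in mouse embryonic stem cells as a repressor of endogenous retroviruses.

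Summed over the set, the members had more RNA in stem cells than in TA cells in each of the 8 mice. The sum was 2318 ± 331 CPM in hom and 2315 ± 275 CPM in het Paneth libraries, 3433 ± 313 CPM in hom and 2938 ± 247 CPM in het stem libraries, and 2607 ± 278 CPM in hom and 2536 ± 169 CPM in het TA libraries (SD, n = 4 each). Within a mouse, the stem sum was 1.07 to 1.39 times the TA sum, and 99 to 116 of the 147 members were higher in the stem library. The share of all genes was not counted within a mouse. In the fit over all mice, 52.5% of all genes tested had a positive log2 fold change of stem over TA cells. The higher sum in stem cells was not particular to the set. The 176 Zfp genes with numbers below 600 had mean sums of 3459 (hom) and 3111 CPM (het) in stem libraries. In TA libraries they had 2590 and 2616 CPM, and their lowest stem library (3040 CPM) stood above their highest TA library (2740 CPM). In CPM, KRAB members carried more of the set's excess in stem cells than members without a KRAB A box. They had 2093 ± 166 CPM in hom stem and 1472 ± 152 CPM in hom TA libraries. Members without a KRAB A box had 1340 ± 172 CPM and 1135 ± 128 CPM. Het means were 1770 and 1409 CPM for KRAB members, against 1168 and 1127 CPM. Much of the sum without a KRAB A box was Zfp706. Its means were 774 (hom) and 614 CPM (het) in stem, 660 and 676 CPM in TA, and 368 and 346 CPM in Paneth libraries. With Zfp706 taken out of the sum, the members without a KRAB A box also had every stem library above every TA library. In sorted bulk samples, fewer cells of a type and less RNA per cell cannot be told apart.

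**Figure D1:**
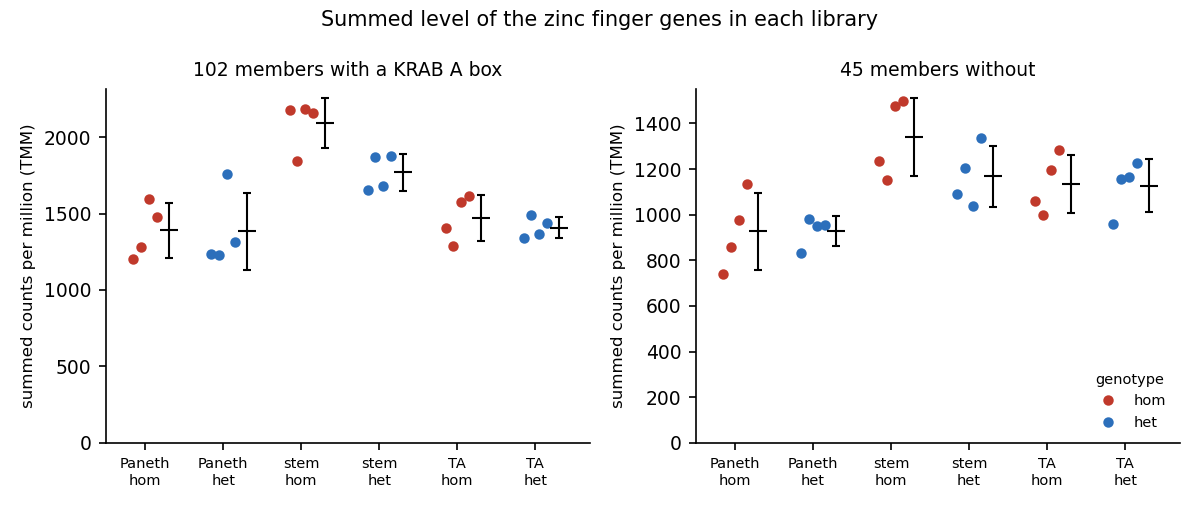
Summed level of the 102 members with a KRAB A box (left) and the 45 without (right), in TMM-scaled CPM, for each library by fraction and genotype. Points are libraries, and the black mark and bar beside them are the group mean and SD (n = 4). All 8 stem libraries of the left panel lie above all 8 TA libraries, while in the right panel stem and TA libraries overlap. Much of the right panel is Zfp706, with 488 to 899 CPM in stem and 509 to 813 CPM in TA libraries. Without Zfp706, the stem libraries of the right panel would also lie above its TA libraries.

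In the comparison of stem with TA cells, averaged over genotypes, 35 members were higher in stem cells and 0 were lower, of 144 tested (edgeR quasi-likelihood test, adjusted p under 0.05). That is 24.3% of the members, where 7.23% of all 17777 genes tested were higher and 8.05% lower. The direction was shared beyond the called genes: 127 of the 144 had a positive log2 fold change, with a median of 0.39 against 0.03 for all genes. KRAB members had 27 of 101 higher and a median of 0.47, members without a KRAB A box 8 of 43 and 0.23. The 173 tested Zfp genes with numbers below 600 had 29 higher, 1 lower and a median of 0.41; whether they differ from the members was not tested. Among the 103 members at 10 counts in every library, which did not enter through 1 fraction, 28 were higher and 0 lower. Of the 35 called members, 26 were higher in stem cells in all 8 mice, 8 in 7 mice and 1 in 6 mice. The same libraries gave the calls, so this agreement between mice is not added support for them. The count changed with the mice used. It was 1 in the het mice alone and 3 in the hom mice alone. It was 20 without BP03, 22 without BN45, 22 without BO27 and 23 without BO25, with 0 lower in each of these settings. The share of all genes called in these settings is not given here. Markers of other cells moved in the same comparison: all 5 goblet markers, 4 of 5 enterocyte markers and 3 of 6 enteroendocrine markers were lower in stem cells, with a summed enterocyte level of 15.4 to 556 CPM (median 51.3) in stem and 152 to 1090 CPM (median 639) in TA libraries. Their part in the members' counts was not tested.

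**Figure D2:**
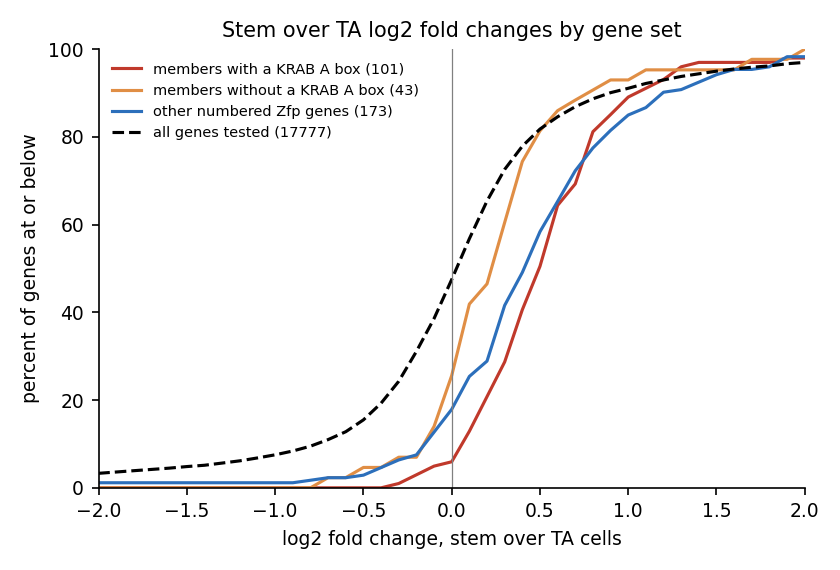
Cumulative share of genes (vertical axis, percent) at or below each log2 fold change of stem over TA cells (horizontal axis) for the 101 tested KRAB members, the 43 other tested members, the 173 other numbered Zfp genes and all 17777 genes tested. The curves of the zinc finger genes lie to the right of the curve of all genes over most of the range, with medians of 0.47, 0.23, 0.41 and 0.03.

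Only 3 members had every stem library above every TA library, where this held for 1.86% of all genes tested, and 0 the reverse, where it held for 2.36%. Zfp984 (ENSMUSG00000078495, chr4:147753974-147809788, mm10, minus strand), a KRAB gene with 11 fingers, had 43.0 CPM in its lowest, 56.8 in its median and 77.5 in its highest stem library, against 28.6, 37.2 and 42.4 CPM in TA libraries. The highest TA library thus stood just under the lowest stem library, and the log2 fold change was 0.66 ± 0.13 (SE, adjusted p = 0.0028).
Zfp618 (ENSMUSG00000028358, chr4:62965573-63139708, plus strand), a gene without a KRAB A box whose protein is known to bind the DNA methylation reader UHRF2, had 5.22, 6.91 and 9.65 CPM in the lowest, median and highest stem library, against 0.0226, 1.98 and 4.30 CPM in TA cells. Its log2 fold change was 1.92 ± 0.46 (SE, adjusted p = 0.0093). In the Paneth fraction the gene ranged from 1.21 to 10.2 CPM and so overlapped both.
Zfp964 (ENSMUSG00000091764, chr8:69654479-69666982, plus strand), a KRAB gene with 9 fingers, had 1.19, 4.07 and 8.30 CPM in stem cells, against 0, 0.729 and 1.14 CPM in TA cells. At 2.61 ± 0.58 (SE, adjusted p = 0.0060) this was the largest log2 fold change of stem over TA cells among the members named, and the highest TA library was just below the lowest stem library. Zfp964 split the Paneth fraction, with 0.956 to 11.3 CPM in the hom libraries and, in the het ones, 5.59 CPM in mouse BO58 and 0.0447 to 0.233 CPM in the other 3.

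Zfp940, Zfp975 and Zfp985, all KRAB genes, followed by size of change among called members of at least 2 CPM in stem cells. Zfp940 had 3.56, 5.18 and 12.4 CPM in the lowest, median and highest stem library, against 0.935, 2.15 and 3.72 CPM in TA cells, with a log2 fold change of 1.36 ± 0.29 (SE, adjusted p = 0.0042). Zfp975 had 10.9, 17.5 and 34.2 CPM in stem cells, against 3.94, 9.57 and 14.3 CPM in TA cells, a log2 fold change of 1.04 ± 0.25 (SE, adjusted p = 0.010). The ranges of both overlapped by a little, although each of the 8 mice had more in its stem library. The call of Zfp985 (log2 1.10 ± 0.31, adjusted p = 0.025) held in 6 of 15 other settings; without BN44, BN45, BO25, BO57, BO58 or BP03 it was lost, with adjusted p up to 0.098. Called with smaller changes were 3 of the 5 members of highest RPKM: Zfp984, Zfp825 (0.58 ± 0.16, adjusted p = 0.022) and Zfp932 (0.54 ± 0.17, adjusted p = 0.037). The call of Zfp825 was lost without BO57 or BP03 (adjusted p 0.073 and 0.078), and that of Zfp932 without BN44, BN45, BO25, BO27, BO58 or BP03 (up to 0.11). Zfp706 did not pass (0.04 ± 0.13, adjusted p = 0.88), nor did Zfp946 (0.06 ± 0.14, adjusted p = 0.85).

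The members lie in clusters. Chromosome 7 holds 33 of them, chromosome 17 holds 22 and chromosome 8 holds 16, and 56 members, 47 of them KRAB genes, fall in 9 runs of at least 4 with gaps of up to 250 kb. In the run at chr4:147132038-147848366 (Zfp991, Zfp988, Zfp982, Zfp985, Zfp984 and Zfp933) the median log2 fold change of stem over TA was 0.88, and 2 of 6 members were called. The run of 13 KRAB genes at chr17:21383748-22456689, from Zfp677 to Zfp946, had 3 members called higher in stem cells, and the run of 5 at chr8:69610857-69791178, which holds Zfp964, had 2, where 24.3% of all tested members were called. Of the others, 4 runs had 0 members called and the run at chr17:32765496-33033402 had 1. The 9 members at chr7:127244274-127885996, of which 4 have a KRAB A box, had a median of 0.01 with 1 called. Genes of such runs can share sequence, and the labels do not say how reads shared between genes were assigned, so values of single genes within a run are less certain than those of lone genes.

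KRAB members that passed were mostly lower in the Paneth fraction than in stem cells, and those without a KRAB A box mostly higher, a contrast between classes that was not itself tested. Against stem cells, 34 members were lower in the Paneth fraction and 16 higher, of 145 tested. That is 34.5% called, under the 46.7% of all 18393 genes tested that were called (27.1% higher and 19.6% lower). Of 101 KRAB members 29 were lower and 4 higher, with a median log2 fold change of -0.52, and of 44 members without a KRAB A box 5 were lower and 12 higher, with a median of 0.18; all genes had a median of 0.10. Among the 103 members at 10 counts in every library, 27 were lower and 13 higher. Enteroendocrine, tuft and Paneth markers were higher and proliferation markers lower (188 to 403 CPM summed in Paneth libraries, 941 to 1280 CPM in stem libraries) in this comparison, and their part in it was not tested. Every Paneth library lay below every stem library for 7 members (Zfp637, Zfp820, Zfp931, Zfp934, Zfp938, Zfp946 and Zfp977) and above for 2 (Zfp710 and Zfp821), where these shares were 7.19% and 10.5% of all genes. In het mice alone 17 members were called and in hom mice alone 30, counts given without the share of all genes.

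**Figure D3:**
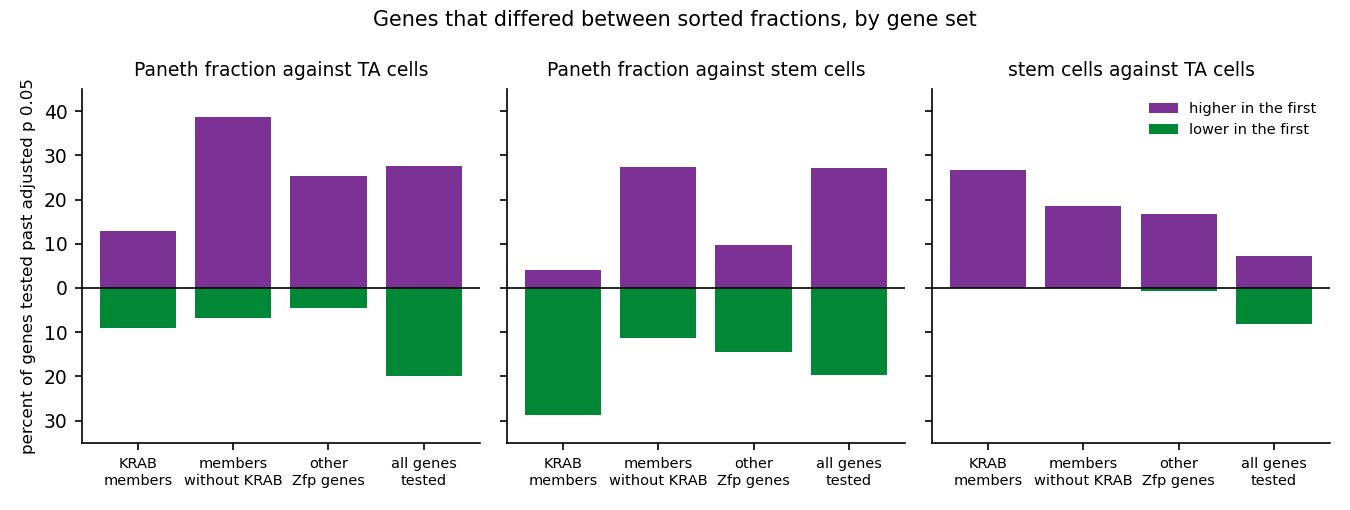
Percent of tested genes past an adjusted p of 0.05 (vertical axis), higher (upward bars) or lower (downward bars) in the first-named fraction, for KRAB members, members without a KRAB A box, other numbered Zfp genes and all genes tested, in the 3 comparisons of fractions. In the Paneth fraction against stem cells, 28.7% of KRAB members were lower and 3.96% higher, while 11.4% of the other members were lower and 27.3% higher.

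Zfp934 and Zfp946 were low in all 8 Paneth libraries. Zfp934 (chr13:62479827-62571199, minus strand) had 3.90, 10.8 and 19.8 CPM in its lowest, median and highest Paneth library, against 25.3, 50.6 and 59.4 CPM in stem cells and 23.5, 31.8 and 39.9 CPM in TA cells. Every Paneth library was below every other library, and the log2 fold change was -1.97 ± 0.30 against stem cells (SE, adjusted p = 5.5e-05) and -1.44 ± 0.27 against TA cells (adjusted p = 0.00045). Zfp946 (chr17:22424222-22456689, plus strand), the KRAB gene of highest RPKM in the set, had 16.8, 44.1 and 57.5 CPM in the Paneth fraction, against 62.7, 107 and 120 CPM in stem cells and 73.9, 87.3 and 132 CPM in TA cells. The Paneth range again lay below both others, and the log2 fold changes were -1.24 ± 0.21 (adjusted p = 0.00017) and -1.18 ± 0.21 (adjusted p = 0.00031). Both genes kept these calls under all 15 other settings. The comparisons with stem and with TA cells use the same Paneth libraries and are not independent of each other.

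Zfp977, Zfp937 and Zfp940 were lower by larger or like amounts but at lower levels. Zfp977, a KRAB gene with 11 fingers, had 0 CPM in 4 Paneth libraries and at most 0.499 CPM in the others, against 0.868 to 4.13 CPM in stem cells, and its fitted log2 fold change was -4.31 ± 0.91 (SE, adjusted p = 0.0011). Its levels did not overlap, but so few Paneth counts leave the size of the change loose. Zfp937 had 1.33, 4.83 and 10.4 CPM in Paneth, 8.73, 17.8 and 29.3 CPM in stem and 9.98, 13.1 and 16.6 CPM in TA libraries, and was lower against both (-1.69 ± 0.37, adjusted p = 0.0014, and -1.26 ± 0.35, adjusted p = 0.0068). Zfp940 was lower than in stem cells (-1.82 ± 0.48, adjusted p = 0.0056) but not distinguishable from TA cells (-0.46 ± 0.52, adjusted p = 0.48). Zfp706, the most abundant member, had 243, 349 and 524 CPM in Paneth libraries, against 488, 672 and 899 CPM in stem and 509, 692 and 813 CPM in TA libraries, and was lower in the Paneth fraction in all 8 mice (-0.92 ± 0.16, adjusted p = 0.00018 against stem cells).

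Against TA cells, 30 members were higher and 12 lower in the Paneth fraction, of 144 tested, or 29.2% against 47.7% of all 18262 genes tested (27.7% higher, 19.9% lower). Members without a KRAB A box had 17 higher and 3 lower of 44, and KRAB members 13 higher and 9 lower of 100. All Paneth libraries lay above all TA libraries for 4 members (Zfp664, Zfp667, Zfp710 and Zfp827) and below for 2 (Zfp934 and Zfp946), where this held for 9.85% and 7.19% of all genes. Zfp710 (ENSMUSG00000048897, chr7:80024814-80094173, plus strand), which has 11 fingers and no KRAB A box, had the smallest adjusted p among the members named. Its lowest, median and highest libraries were 8.30, 12 and 21.8 CPM in the Paneth fraction, 1.25, 1.85 and 3.75 CPM in stem cells and 1.97, 2.57 and 3.38 CPM in TA cells. All 8 Paneth libraries were above all 16 others, with log2 fold changes of 2.38 ± 0.23 against TA cells (SE, adjusted p = 7.2e-07) and 2.78 ± 0.26 against stem cells (adjusted p = 4.3e-07), called under all 15 other settings.
Zfp667, a KRAB gene, was higher too. It had 4.87, 7.92 and 19.1 CPM in the lowest, median and highest Paneth library, against 0.537, 2.72 and 9.51 CPM in stem cells and 0.278, 1.15 and 2.90 CPM in TA cells. The Paneth range cleared the TA range but overlapped the stem range, and the log2 fold changes were 2.71 ± 0.38 against TA cells (adjusted p = 3.5e-05) and 1.89 ± 0.34 against stem cells (adjusted p = 0.00026).
Zfp775, without a KRAB A box, was higher than in TA cells by 2.83 ± 0.56 on the log2 scale (adjusted p = 0.00063), at low levels of 0.571 to 5.33 CPM in Paneth and 0.113 to 0.586 CPM in TA libraries. Zfp687 (1.59 ± 0.41, adjusted p = 0.0050), whose human counterpart belongs to a chromatin complex with ZMYND8, and Zfp697 (1.49 ± 0.45, adjusted p = 0.012) followed. Zfp821 (1.80 ± 0.42, adjusted p = 0.0024) and Zfp626 (1.26 ± 0.29, adjusted p = 0.0021) were higher than in stem cells. Zfp711 was lower than in TA cells (-1.84 ± 0.53, adjusted p = 0.0090), and the call of Zfp808 (-1.04 ± 0.41, adjusted p = 0.047) held in 6 of 15 other settings; without BN44, BN45, BO25, BO27, BO57 or BO58 it did not pass, with adjusted p up to 0.14. Zfp697 did not pass without BO57 (1.11, adjusted p = 0.068). In het mice alone 18 members were called and in hom mice alone 21, again without the share of all genes beside them.

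**Figure D4:**
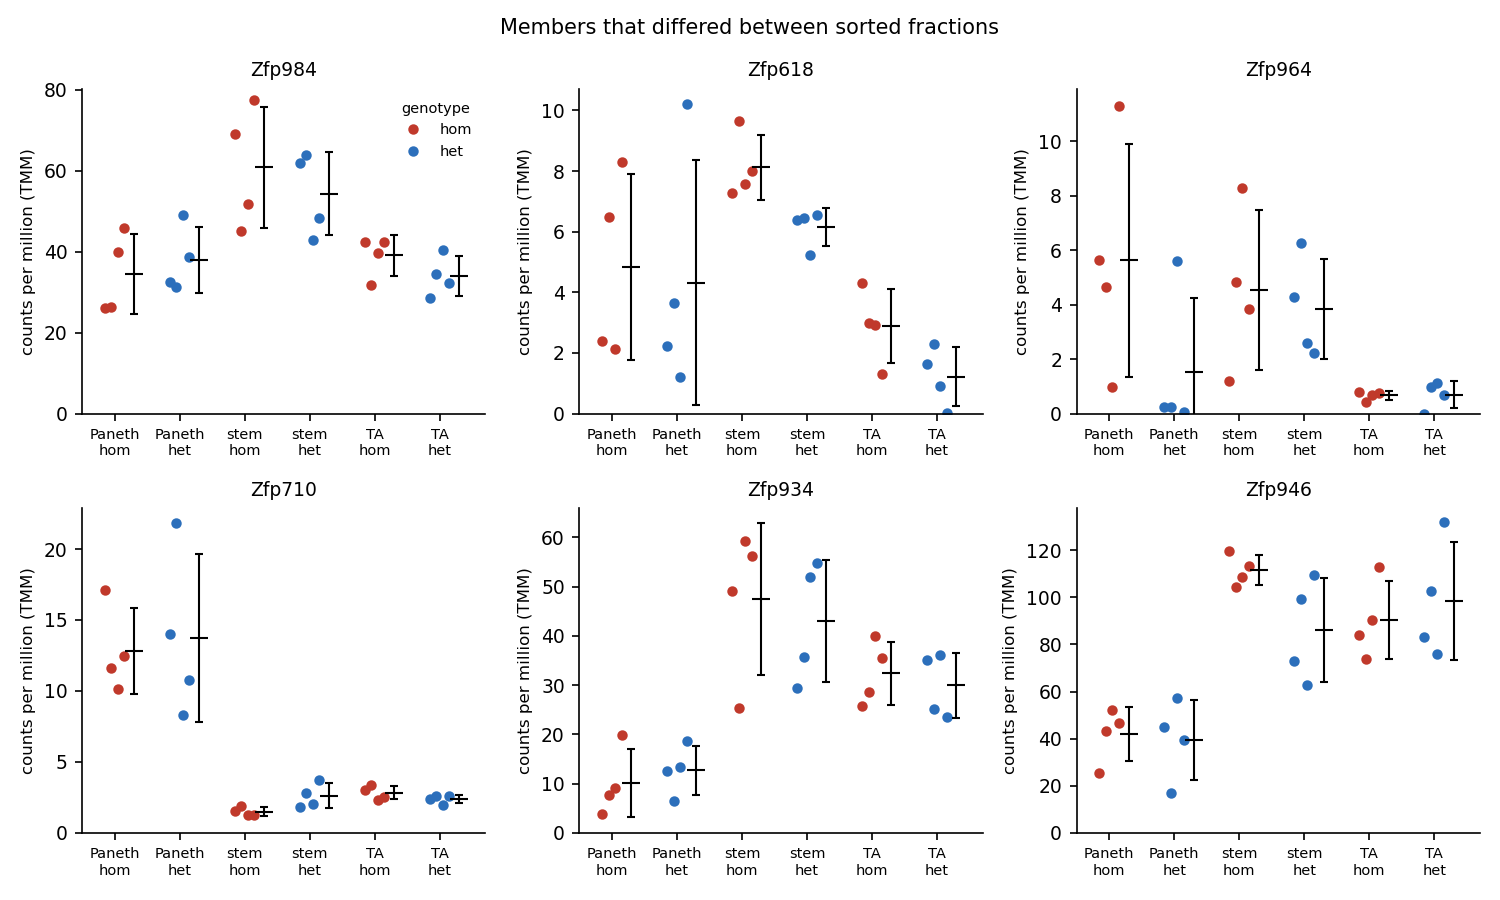
TMM-scaled CPM of 6 members in each library by fraction and genotype; points are libraries, and the black mark and bar are the group mean and SD (n = 4), with bars ending at 0 where they would pass it. Zfp984, Zfp618 and Zfp964 have all stem libraries above all TA libraries, Zfp710 has its 8 Paneth libraries at 8.30 to 21.8 CPM above all others, and Zfp934 and Zfp946 have theirs below all others.

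In most members with a described role no KRAB A box was found, and these members took different courses. Zfp644, which binds the histone methyltransferase complex of G9a, had 30.2, 44.2 and 64.8 CPM in its lowest, median and highest Paneth library, 31.5, 44.8 and 53.2 CPM in stem cells and 26.1, 31.1 and 35.8 CPM in TA cells. It was above TA cells both in the stem (log2 0.47 ± 0.11, adjusted p = 0.0079) and in the Paneth fraction (0.61 ± 0.13, adjusted p = 0.0016). Zfp827, whose human counterpart recruits a chromatin remodeller to telomeres, did the same (0.48 ± 0.14, adjusted p = 0.028, and 1.14 ± 0.21, adjusted p = 0.00040). Zfp703, a corepressor known in humans as a breast cancer oncogene, was higher in stem than in TA cells (0.56 ± 0.15, adjusted p = 0.018). Zfp609, a partner of the cohesin loader, and Zfp652, known in humans as a transcriptional repressor, were higher in the Paneth fraction than in stem cells (1.00 ± 0.31, adjusted p = 0.016, and 1.14 ± 0.24, adjusted p = 0.0011). Without BO57 the call of Zfp609 was lost (0.87, adjusted p = 0.062), without BN44, BO27 or BO57 that of Zfp703 (adjusted p up to 0.082), and without BN44, BO25, BO57, BP03 or BP04 that of Zfp827 in stem cells (up to 0.11). Zfp652 shares 20.0% of its exon length with other genes, so part of its count may not be its own.
The KRAB protein Zfp809, which in mouse embryonic cells binds the primer binding site of murine leukemia virus, had 15.3, 28.4 and 42.5 CPM in Paneth, 27.5, 43.6 and 60.1 CPM in stem and 31.5, 37.2 and 44.4 CPM in TA libraries. It was lower in the Paneth fraction than in stem cells (-0.62 ± 0.20, adjusted p = 0.015), and stem and TA cells overlapped (0.27 ± 0.12, adjusted p = 0.17). The KRAB gene Zfp961 was lower in the Paneth fraction as well (-0.58 ± 0.19 against stem cells, adjusted p = 0.019), as was Zfp830, a nuclear protein required in early mouse embryos (-0.67 ± 0.26, adjusted p = 0.045). Without 1 mouse some of these calls were lost: Zfp809 without BO25 (adjusted p = 0.053), Zfp961 without BN44, BO27 or BP04 (up to 0.06), and Zfp830 without BN45, BO27, BO57, BO58 or BP04 (up to 0.14). Zfp638, which silences unintegrated retroviral DNA in human cells, Zfp622, a ribosome assembly factor, and Zfp746, the repressor PARIS, passed in none of the 3 comparisons of fractions.

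Of the 17 genes of the KRAB silencing machinery measured, 2 passed as higher in stem cells against TA cells and 0 as lower, against 7.23% higher among all genes. Trim28, the corepressor that KRAB domains bind, averaged 116 CPM in stem and 93.7 CPM in TA cells (log2 0.30 ± 0.08, SE, adjusted p = 0.022), and Smarcad1, a chromatin remodeller that works with it, 45.0 CPM and 32.1 CPM (0.49 ± 0.12, adjusted p = 0.011). The call of Trim28 was lost without BO27, BO57, BP03 or BP04 (adjusted p up to 0.09). Setdb1 did not pass (0.09 ± 0.17, adjusted p = 0.79). In the Paneth fraction 7 of the 17 were higher (41.2%) and 6 lower (35.3%) than in stem cells, where 27.1% and 19.6% of all genes were, the remodellers Chd3 by 2.23 ± 0.26 and Chd4 by 1.03 ± 0.16 on the log2 scale (SE), with Uhrf1, which maintains DNA methylation (-1.15 ± 0.19, adjusted p = 0.00016), and Trim28 (-0.32 ± 0.10, adjusted p = 0.017) lower.

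Between genotypes no member passed in any fraction in edgeR, and DESeq2 called 2 in stem cells. In stem cells 0 of 142 members were called by edgeR, where 0.0125% of all 16056 genes were, in TA cells 0 of 140, where 0% were, and in the Paneth fraction 0 of 132, where 0% were. At an unadjusted p under 0.05 there were 18 members in stem cells, 9 in TA cells and 5 in the Paneth fraction, or 12.7%, 6.43% and 3.79% against 6.73%, 5.92% and 2.28% of all genes. The members DESeq2 called in stem cells were Zfp667 (log2 2.08, adjusted p = 0.032) and Zfp711 (1.91, adjusted p = 0.023), and it called 0 in the other fractions. The share of all genes that DESeq2 called is not set beside these 2, so they stand without a background. In stem cells the direction leaned to the hom side. Of 142 members 94 (66.2%) had a positive log2 fold change of hom over het, where 50.5% of all genes did. The median was 0.13 against 0.00 for all genes. Of 100 KRAB members 74 were positive, with a median of 0.17. Members without a KRAB A box had a median of -0.03. The Zfp genes below 600 were 59.1% positive with a median of 0.11. At an unadjusted p under 0.05 they had 13 higher and 5 lower (10.5%). All these values come from the same libraries, so members are not separate observations. Of the 18 members at an unadjusted p under 0.05 in stem cells, 15 were on the higher and 3 on the lower side in hom, where 2.76% and 3.97% of all genes were. In TA cells 8 were higher and 1 lower, against 2.91% and 3% of all genes, and in the Paneth fraction 2 were higher and 3 lower, against 0.919% and 1.37%. Every hom stem library was above every het stem library for 6 of the tested members, namely Zfp618, Zfp667, Zfp711, Zfp777, Zfp967 and Zfp970, and the reverse held for 0, where these shares were 1.92% and 2.93% of all genes.

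Zfp667 was the member with the smallest unadjusted p in stem cells. It had 4.84, 3.58, 2.89 and 9.51 CPM in hom stem cells, against 0.997, 0.537, 0.885 and 2.55 CPM in het stem cells, so the lowest hom library was just above the highest het one. The log2 fold change was 2.06 ± 0.57 (SE, adjusted p = 0.38 in edgeR). In the Paneth fraction the gene had 13.8, 13.1, 8.27 and 19.1 CPM in hom, against 7.12, 4.87, 5.08 and 7.56 CPM in het libraries, again without overlap, with a log2 fold change of 1.13 ± 0.35 (adjusted p = 1.0). In TA cells hom libraries had 2.90, 0.735, 1.10 and 2.55 CPM, against 0.976, 1.20, 0.278 and 1.99 CPM in het libraries, which overlapped (0.72 ± 0.65, adjusted p = 0.97).
Zfp867 (ENSMUSG00000054519, chr11:59461197-59472474, minus strand), a KRAB gene with 10 fingers, had its widest gap between genotypes in the Paneth fraction. It had 23.3, 15.4, 16.6 and 20.4 CPM in hom Paneth libraries, against 6.33, 2.39, 9.91 and 3.62 CPM in het ones, a clear gap, with a log2 fold change of 1.76 ± 0.44 (adjusted p = 1.0). In stem cells it leaned the other way, with 19.6, 14.2, 8.18 and 5.59 CPM in hom, against 22.2, 14.8, 11.2 and 14.7 CPM in het libraries, which overlapped (-0.41 ± 0.38, adjusted p = 0.91). The test of whether the genotype effect differs between fractions gave an adjusted p of 0.78 for Zfp867. Both genes were named with the set while earlier results of these data were known, so their levels describe these mice and are not independent evidence of a genotype effect.

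Zfp711, an X-linked gene whose human counterpart recruits the histone demethylase PHF8 and is mutated in intellectual disability, had 8.21, 6.84, 10.8 and 22.3 CPM in hom stem cells, against 0.962, 5.19, 2.57 and 4.08 CPM in het stem cells. The log2 fold change was 1.90 ± 0.54 (SE, adjusted p = 0.41). In TA cells it had 10.5, 13.5, 14.4 and 13.0 CPM in hom, against 7.03, 8.65, 6.27 and 10.5 CPM in het libraries (0.67 ± 0.22, adjusted p = 0.70), and in the Paneth fraction the groups overlapped widely.
Zfp951, a KRAB gene, had opposite signs in stem cells and the Paneth fraction. It had 20.0, 6.97, 19.4 and 13.9 CPM in hom stem cells, against 10.9, 15.0, 5.04 and 5.84 CPM in het stem cells, but 0.954, 3.63, 0.208 and 0.252 CPM in hom Paneth libraries, against 6.19, 1.98, 10.2 and 12.9 CPM in het ones. The Paneth log2 fold change was -2.62 ± 0.93 (adjusted p = 1.0), and the interaction had an adjusted p of 0.78. Over the set, the interaction was called for 0 of 147 members, where 0.00516% of all 19396 genes were, and 6 members had an unadjusted p under 0.05, where 5.08% of all genes did; DESeq2 called 0.

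The other members named for their small p-values passed in neither edgeR nor DESeq2. In stem cells Zfp960 had higher values in hom (0.71 ± 0.23, adjusted p = 0.52), and Zfp974 (-1.11 ± 0.33, adjusted p = 0.45), Zfp994 (-0.85 ± 0.28, adjusted p = 0.56) and Zfp646 (-0.93 ± 0.32, adjusted p = 0.59) had lower values there. Zfp646 had 2.87, 5.89, 2.83 and 4.43 CPM in hom stem cells, against 8.90, 7.52, 8.85 and 5.22 CPM in het stem cells. In TA cells Zfp619 (1.30 ± 0.47, adjusted p = 0.77) and Zfp809 (0.33 ± 0.12, adjusted p = 0.80) had higher and Zfp689 (-1.0 ± 0.34, adjusted p = 0.73), Zfp688 (-0.54 ± 0.25) and Zfp931 (-0.59 ± 0.28) lower values in hom. Without overlap in TA cells were Zfp619, Zfp809, Zfp937 and Zfp951 above and Zfp689 below, 4 and 1 of the tested members, where 1.98% and 2.19% of all genes were. In the Paneth fraction Zfp667 and Zfp867 were above without overlap and Zfp963 below, 2 and 1 of the tested members, where 0.838% and 0.925% of all genes were. Zfp952 (0.62 ± 0.35), Zfp870 (-0.99 ± 0.41) and Zfp963 (-0.90 ± 0.32) stood there at an adjusted p of 1.0; Zfp963 shares 40.8% of its exon length with another gene.

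**Figure D5:**
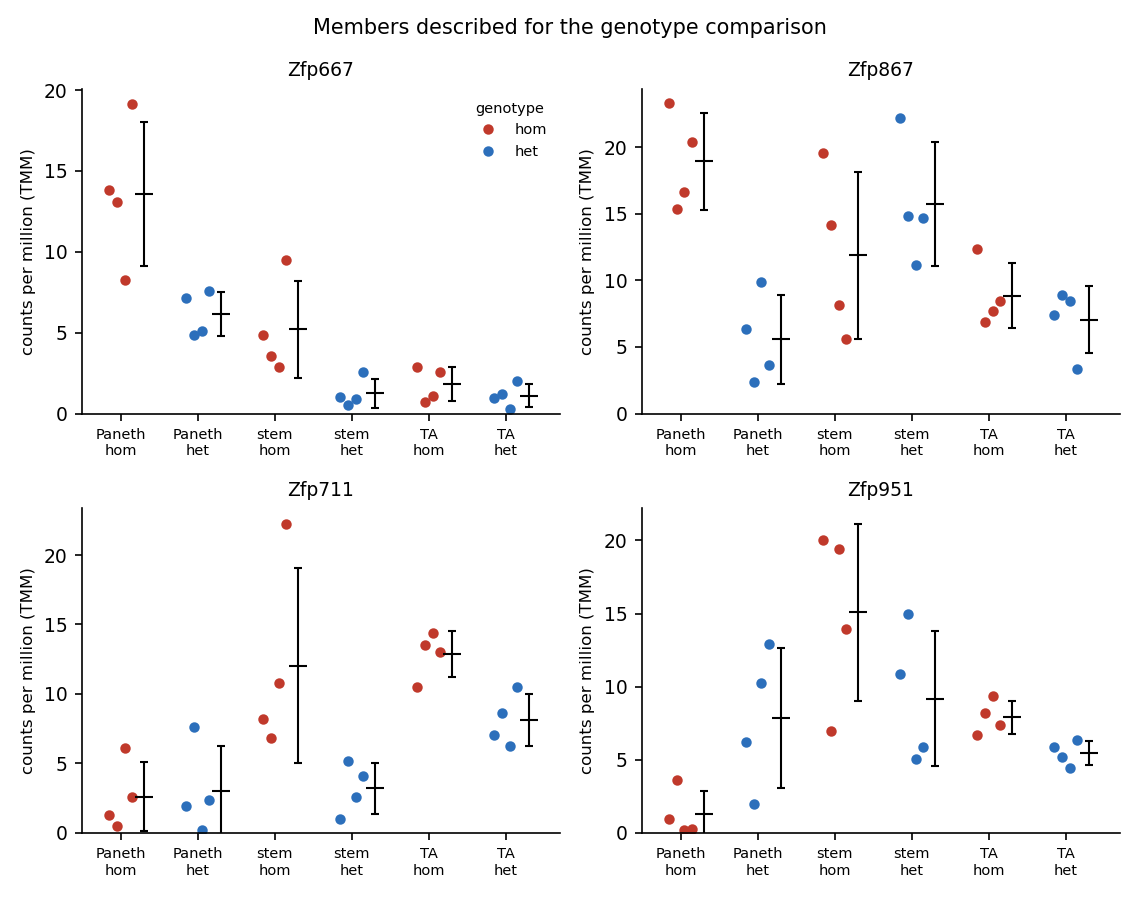
TMM-scaled CPM of Zfp667, Zfp867, Zfp711 and Zfp951 in each library by fraction and genotype; points are libraries, and the black mark and bar are the group mean and SD (n = 4), with bars ending at 0 where they would pass it. Zfp667 is higher in hom than in het libraries without overlap in the Paneth and stem fractions, Zfp867 in the Paneth fraction, and Zfp711 in stem cells, and no difference passed an adjusted p of 0.05 in edgeR.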

How the data were processed

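Total RNA of sorted small intestinal epithelium was measured in 24 libraries. The deposited table holds raw counts per gene, made by the authors with featureCounts 2.0.1 on mm10 after bcl2fastq 2.20.0, per the submitters' processing notes; the aligner, the strand setting and the treatment of reads shared by near copies are not given in the sources used here. The protocol amplifies cDNA by PCR and names no molecular identifiers, so counts are of reads. Gene names and biotypes came from GENCODE M21; 267 of the 55421 gene IDs had no symbol. The 92 spike-in rows, at most 6 counts in a library, were left out.

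All genes passing filterByExpr were fitted with edgeR 4.0.16 (R 4.3.3; quasi-likelihood F test, TMM scaling, Benjamini-Hochberg adjustment over all genes tested, threshold 0.05), after the code was tested on simulated data. Genotypes (hom over het) were compared within a fraction, fractions over 4 groups averaged over genotypes, and the interaction over all 24 libraries. Each mouse gave 1 library of each fraction per the labels, which pairs the fractions; same-mouse libraries had correlated deviations of -0.014 to 0.212 across genes. Levels are TMM-scaled CPM over the 24 libraries, or RPKM by exon length. Nothing in the labels ties mice to litters or days. Alternatives were DESeq2 1.42.0, its size factors in edgeR, no filter, a mean of at least 2 CPM, the mouse as block, each genotype alone, and each mouse left out.

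KRAB A boxes and C2H2 fingers were searched in translated GENCODE coding sequences, in place of RefSeq proteins, which were planned and not used here. Exons of 43 of the 147 members overlap another gene, 3 over more than 20% of their length (Zfp784, Zfp865 and Zfp963); without a stated strand setting, antisense partners cannot be told apart. Members, lists and tests were chosen with earlier results of these data known. Named genes were Zfp667 and Zfp867; the 3 members of smallest p per direction in each genotype comparison, at a mean of at least 1 CPM; the 5 called members of largest log2 fold change per direction in each comparison of fractions, at least 2 CPM in the higher fraction; the 5 of highest RPKM; and members with a described role. Zfp637, Zfp664, Zfp777, Zfp784, Zfp820, Zfp865, Zfp938, Zfp967 and Zfp970 were named outside this rule, after their values were seen.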

Additional observations from a re-analysis of the deposited data

Results flagged for a closer look

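Dixon's test at 95% was run on 282 groups of 4 libraries, for each named member and for the members' summed level. In 10 of them 1 library lay far from the other 3. Chance flags about 1 in 20 groups, a larger share than was flagged here. Mouse BO58 gave 4 of the 10, and whether it differs from the other mice was not tested. Its het TA library was high for Zfp821 (2.15 CPM, the others 1.56 to 1.65 CPM) and for Zfp827 (11.9 CPM, the others 8.53 to 8.85 CPM), its het stem library was low for Zfp618 (5.22 CPM, the others 6.38 to 6.56 CPM), and its het Paneth library was high for the KRAB gene Zfp964 (5.59 CPM, the others 0.0447 to 0.233 CPM), the widest of these gaps in proportion.

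Mouse BO57 had high Zfp626 in its hom stem library (6.18 CPM, the others 2.31 to 2.81 CPM) and low Zfp703 in its hom Paneth library (4.45 CPM, the others 11.3 to 12.8 CPM). Zfp825 was low in the hom stem library of BO25 (30.3 CPM, the others 49.8 to 52.4 CPM), Zfp827 high in the het Paneth library of BO27 (33.2 CPM, the others 16.7 to 18.9 CPM), Zfp830 high in the hom TA library of BN45 (21.6 CPM, the others 11.1 to 11.5 CPM) and Zfp974 high in the hom TA library of BP04 (8.19 CPM, the others 2.27 to 2.88 CPM). Outside the measurement of genes, spike-in sequences reached 6 counts in 1 library.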

How the results depend on the processing

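The 0 calls of each genotype comparison and of the interaction stood under every alternative run, mice left out included (lowest and highest 0), except that DESeq2 called 2 members in stem cells. Stem against TA cells kept 0 lower members except for 1 without BP04. Its 35 calls became 34 with size factors, 41 with DESeq2, 27 without a filter, 38 at 2 CPM and 43 with the mouse as replicate block, but 1 in het mice alone and 3 in hom mice alone (fewer samples), and 20 to 28 with a mouse left out. Paneth against TA cells went from 42 to 18 (het alone) and 21 (hom alone), and 34 to 42 with a mouse left out. Paneth against stem cells went from 50 to 17 and 30, and 41 to 53. Shares of all genes called under these alternatives are not set beside these counts. The block gave 44 and 52 calls there; of single genes named it ended the Paneth-against-stem calls of Zfp687 (adjusted p = 0.11), Zfp688 (0.067) and Zfp951 (0.097) and the stem-against-TA call of Zfp960 (0.067), and changed no other call. Of 1322 pairs of a named gene's result and a setting 0 reversed, and 169 of 1106 called ones were lost, 77 in 1 genotype alone and 77 with a mouse left out. Genes near a few counts, such as Zfp977, Zfp775 and Zfp964, are limited by depth.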

Other observations

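The 3 comparisons of fractions sort the 147 members into a few courses. Passing in none of the 3 were 63 members, 45 of them KRAB genes. The largest courses among the others were 14 members higher in the Paneth fraction than in both other fractions with no call between stem and TA cells (4 KRAB genes), 14 higher in stem than in TA cells alone (11 KRAB genes), 13 higher in stem than in TA cells and lower in the Paneth fraction than in stem cells (12 KRAB genes) and 11 lower in the Paneth fraction than in stem cells alone (9 KRAB genes). Lower in the Paneth fraction than in both others, again with no call between stem and TA cells, were 9 members (8 KRAB genes), and 9 were higher in the Paneth fraction than in TA cells alone (6 KRAB genes). The remaining courses held fewer members or included a comparison in which the gene was not tested. The fractions are shared between these comparisons, and no course was tested against chance. The share of all genes in each course was not counted, so no course is known to be more common among members. Of all genes tested, 47.7% were called in the Paneth fraction against TA cells, where 29.2% of members were. Against stem cells these shares were 46.7% and 34.5%, and for stem against TA cells 15.3% and 24.3%.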
